A study of Mus musculus with 2 samples.

Results

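The serpins are a family of proteins that share 1 fold and that mostly inhibit serine proteases. They were taken here as the protein-coding genes of GENCODE M21 whose symbol starts with Serpin, and 61 of the 55421 genes counted in mouse liver met that rule. They fall into clades a to i, named by the letter after Serpin. Total liver RNA was sequenced in 1 library from Rcrin conditional knockout mice and 1 library from WT mice, which carry floxed Rcrin alleles. The labels give 8 weeks for both libraries. The strain and sex of the mice, the Cre line, the cells that lost Rcrin and the number of mice in a library were not stated in the labels. The comparison asked how loss of Rcrin bears on gene expression in the liver. With 1 library per genotype no test was possible, so every contrast given compares single libraries, and intervals cover counting error only.

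An inhibitory serpin exposes a reactive centre loop as bait. A protease that cuts the loop is carried across the serpin and held in a dead complex, so each molecule works once. Hepatocytes secrete most of the serpins of blood plasma, among them alpha-1 antitrypsin (Serpina1), antithrombin (Serpinc1) and the C1 inhibitor (Serping1). Clade b serpins lack a classical signal peptide and mostly stay inside cells, where several guard leukocytes and epithelia against their own granule proteases. A few serpins inhibit no protease and carry hormones or fold collagen instead.

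Total counts were 63587567 in the Rcrin knockout library and 65121596 in the WT library. Levels are given in CPM, the count of a gene scaled to the TMM-corrected size of its library, and ratios as the log2 ratio of knockout over WT. A gene was compared where its 2 counts averaged 50 or more, which held for 12064 genes. It could pass this filter through its count in 1 library alone. A gene was called higher or lower where the libraries differed by 2-fold or more (a log2 ratio beyond 1 or -1). Hepatocyte markers were present throughout, at 262 to 89624 CPM in the knockout library and 116 to 50542 CPM in the WT library over 10 of 10 genes. The markers of the family itself, Serpina1a, Serpina3k, Serpina3n and Serpinc1, each had at least 18712 counts in either library.

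Of the 61 serpins, 29 were compared. In the knockout library 4 stood at least 2-fold higher (Serpinb1a, Serpina9, Serpinb6b and Serpinb6a) and 3 at least 2-fold lower (Serpina3f, Serpina3n and Serpina10), while 22 lay between. Over all genes compared, 8.45% were higher and 8.61% lower by this limit, and among genes with at least 5 exons, as all compared serpins have, 6.95% were higher and 7.04% lower. With 29 genes, the counts on both sides are close to these shares. The median log2 ratio of the compared serpins was 0.09, beside -0.01 over all genes compared. In sum the 61 serpins took 10.1% of all counts in the knockout library and 9.17% in the WT library (log2 ratio 0.19, interval 0.190 to 0.194).

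The 5 expressed paralogs of alpha-1 antitrypsin and 5 of the Serpina3 group carry most of that sum, and reads of such copies can only be told apart where their sequences differ. The windows below show where the copies differ most among stretches aligned without gaps. Each is the 45-base stretch of the coding sequence with most variable positions in an alignment of the 5 copies. Stretches with a gap in any copy were left out. The windows read 5′ to 3′ on the coding strand from GENCODE M21 transcripts on GRCm38. Capitals mark positions at which the 5 copies are not all the same. In both groups the window lay in the last exon, close to the 3′ end of the coding sequence, where serpins encode the reactive centre loop. In the Serpina1 copies it spanned bases 1116 to 1160 of a coding sequence of 1239 bases:
Serpina1a: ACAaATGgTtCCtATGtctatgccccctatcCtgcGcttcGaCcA
Serpina1b: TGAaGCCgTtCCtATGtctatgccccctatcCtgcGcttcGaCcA
Serpina1c: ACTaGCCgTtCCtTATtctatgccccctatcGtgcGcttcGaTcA
Serpina1d: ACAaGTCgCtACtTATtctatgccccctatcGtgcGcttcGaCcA
Serpina1e: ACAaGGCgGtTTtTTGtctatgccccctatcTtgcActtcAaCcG
These windows lie on the minus strand at chr12:103853757-103853801 (Serpina1a), chr12:103728324-103728368 (Serpina1b), chr12:103895094-103895138 (Serpina1c), chr12:103763762-103763806 (Serpina1d) and chr12:103947100-103947144 (Serpina1e). Of the 45 positions 17 varied, and 6.94% of all 1239 aligned positions did. The window was chosen for its variable positions, so it had to stand above that share. Pairs of Serpina1 coding sequences were 96.3% to 98.5% identical, with Serpina1a and Serpina1c the closest pair.

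The Serpina3 copies differ more, at 80.2% to 91.7% identity between pairs, with Serpina3k and Serpina3m the closest. Their window of 45 bases held 24 variable positions, and 30.8% of the 642 aligned columns without gaps varied. It was chosen for its variable positions, so it had to stand above that share. The window is shown because copies alike in its left part stood on opposite sides of WT in these libraries. Whether sequence bears on the ratios was not tested:
Serpina3f: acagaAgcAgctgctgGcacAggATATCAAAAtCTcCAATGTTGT
Serpina3g: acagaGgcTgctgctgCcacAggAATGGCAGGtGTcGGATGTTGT
Serpina3k: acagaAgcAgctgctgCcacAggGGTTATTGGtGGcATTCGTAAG
Serpina3m: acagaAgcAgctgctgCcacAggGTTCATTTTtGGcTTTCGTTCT
Serpina3n: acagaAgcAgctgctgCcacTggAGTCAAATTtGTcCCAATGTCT
They lie on the plus strand at chr12:104220248-104220292 (Serpina3f), chr12:104241075-104241119 (Serpina3g), chr12:104345272-104345316 (Serpina3k), chr12:104393772-104393816 (Serpina3m) and chr12:104413451-104413495 (Serpina3n). The left part of the window, which encodes the start of the loop, is nearly the same in all 5 copies, and the right part differs between them.

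**Figure D1:**
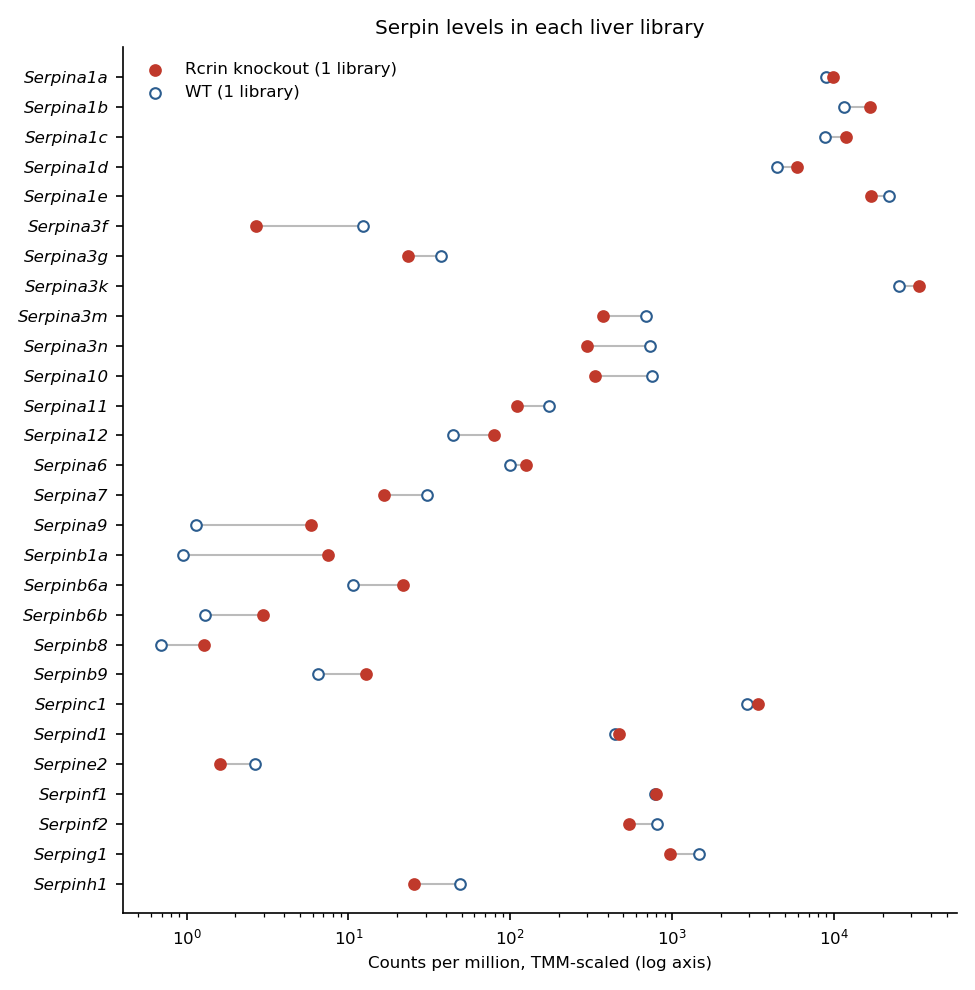
Level of 28 of the 29 compared serpins in CPM after TMM scaling, on a log axis, with the knockout library as filled red points and the WT library as open blue points (1 library each). Levels run from below 1 CPM (Serpinb1a and Serpinb8 in WT) to 33661 CPM (Serpina3k in the knockout library), and most pairs of points lie close together.

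Alpha-1 antitrypsin, in humans the main plasma inhibitor of neutrophil elastase, was little different in sum over its mouse copies. The copies differ in the loop windows shown above, and which proteases each inhibits was not tested. The Serpina1 genes together had 3850596 counts in the knockout library and 3694376 in the WT library, or 6.06% and 5.67% of all counts (log2 ratio 0.15, interval 0.143 to 0.147). The copies did not move as 1 group. Serpina1b had 1050282 counts in the knockout library and 767662 in the WT library, a log2 ratio of 0.54 and the highest of the 5. Serpina1c (747878 in the knockout library, 587181 in WT, log2 ratio 0.43) and Serpina1d (370937 and 295853, 0.41) stood close behind, and Serpina1a had 616985 and 589080 counts (0.15). Serpina1e stood on the other side, with 1064514 counts in the knockout library and 1454600 in the WT library (log2 ratio -0.37).

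The makeup of the alpha-1 antitrypsin pool therefore differed more than its size. Serpina1e made up 27.6% of Serpina1 counts in the knockout library (exact 95% interval 27.60% to 27.69%) and 39.4% in the WT library (39.32% to 39.42%). Serpina1b made up 27.3% in the knockout library and 20.8% in the WT library, so that Serpina1b and Serpina1e were about level in the knockout library while Serpina1e led in WT. Serpina1a held 16.0% of the pool in the knockout library and 15.9% in the WT library. Serpina1f was listed at 0 in both.

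How far the split can be read depends on the copy. Of the 50-base stretches of the Serpina1e transcript, 64.4% occurred in no transcript of another gene, and 64.2% of those of Serpina1b. The share was 49.1% for Serpina1d, 20.7% for Serpina1c and 19.1% for Serpina1a, and 69.3% of the Serpina1a stretches also stood in Serpina1c. At 100 bases the unique shares were 85.2% for Serpina1e, 79.4% for Serpina1b, 70.7% for Serpina1d, 30.7% for Serpina1c and 39.0% for Serpina1a. The read length and the treatment of reads with several matches are unknown, so the split between Serpina1a and Serpina1c is uncertain. Their sum had a log2 ratio of 0.30. Exons of Serpina1c also overlap the antisense gene B430119L08Rik on the opposite strand, which had 6507 counts in the knockout library and 6093 in the WT library. These counts are small beside those of Serpina1c. Use of strand in counting was not stated, so whether reads of the overlap were lost is unknown.

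The 5 Serpina1 promoters share a run of 59 bases (RefSeq, GRCm38.p6, minus strand of chromosome 12), which is shown because it is common to copies that stood on both sides of WT:
Serpina1 shared run: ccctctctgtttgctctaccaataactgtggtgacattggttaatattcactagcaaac
It lies at chr12:103738196-103738254 before Serpina1b and at chr12:103956956-103957014 before Serpina1e. It starts 55 to 66 bases before the annotated start of Serpina1a, Serpina1b, Serpina1c and Serpina1d and 117 bases before that of Serpina1e. Promoter windows of 300 bases (250 before the start and 50 after) were present for 52 of the 61 serpins and for 21 of the 29 compared. The STAT motif TTCNNNGAA was found for 4 of these 21 (Serpina11, Serpina3f, Serpina3g and Serpinb6a), beside 9.55% of all 27025 genes with a window, and the C/EBP motif TTGCNNAA on either strand for 8 of 21, beside 12.2%. The motifs were counted without regard to overlap between them. The Serpina1 copies share their sequence and are not independent of each other.

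**Figure D2:**
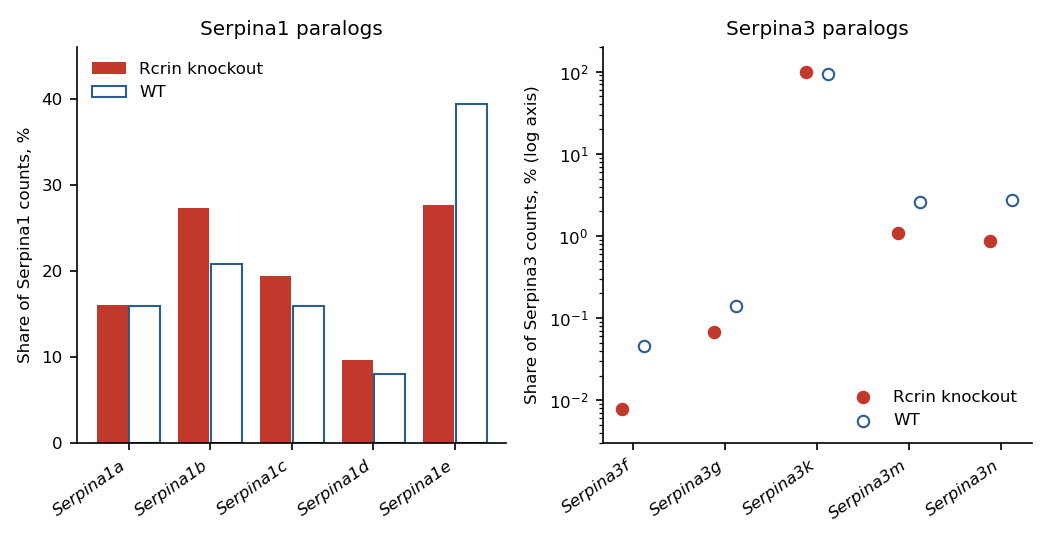
Left, share of each copy in all Serpina1 counts in percent, with the knockout library as filled red bars and WT as open blue bars. Right, share of each compared copy in all Serpina3 counts on a log axis, with filled red points for the knockout library and open blue points for WT. Serpina1e holds 27.6% in the knockout library, against 39.4% in WT, and the 4 Serpina3 copies other than Serpina3k all hold smaller shares in the knockout library.

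The Serpina3 group split more sharply. Serpina3k, contrapsin, a plasma inhibitor of trypsin-like proteases, was the most abundant serpin of either library per length of coding sequence, at 26843 CPM per kb in the knockout library and 20181 in the WT library. It had 2102938 counts in the knockout library and 1677433 in the WT library (log2 ratio 0.41). The 4 other compared copies all stood lower in the knockout library, 2 of them past 2-fold. Serpina3n (ENSMUSG00000021091, chromosome 12 from 104406729 to 104414329), an inhibitor of granzyme B that inflammation induces, had 18712 counts in the knockout library and 48542 in the WT library, 2.45-fold lower (log2 ratio -1.29, interval -1.31 to -1.27). Serpina3f (ENSMUSG00000066363, chromosome 12 from 104214544 to 104221129) was 4.57-fold lower, with 167 counts in the knockout library and 811 in the WT library (-2.19, interval -2.44 to -1.95), the lowest ratio of all compared serpins. Serpina3m had 23342 counts in the knockout library and 45930 in the WT library (-0.89). Serpina3g, an intracellular inhibitor of cysteine cathepsins, had 1456 and 2468 (-0.68).

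Because Serpina3k made up 98.0% of Serpina3 counts in the knockout library and 94.5% in the WT library, the sum of the 10 Serpina3 genes followed it. The sum was 2146680 counts in the knockout library and 1775259 in the WT library (log2 ratio 0.36, interval 0.357 to 0.362). Without Serpina3k the other 9 genes had 43742 and 97826 counts, a log2 ratio of -1.08. The loop windows shown above differ enough to separate these copies, and 93.1% of the 50-base stretches of Serpina3n, 89.3% of Serpina3f, 86.0% of Serpina3k, 84.0% of Serpina3g and 80.9% of Serpina3m occurred in no other gene. Serpina3m shared 16.0% of its stretches with Serpina3k, and an annotated exon of Serpina3m overlaps Serpina3k on the same strand, so Serpina3m is the least certain of the 5. Serpina3k and Serpina3m together had a log2 ratio of 0.39.

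Serpina3n is known as an acute phase gene, and the acute phase list moved with it. Of 24 such genes compared, 14 were at least 2-fold lower in the knockout library and 1 higher (8.61% and 8.45% of all genes), with a median of -1.28. The lowest were Saa2 (log2 ratio -6.62), Mt2 (-5.16) and Lcn2 (-4.87), and the highest were Crp (8.26), Cd14 (0.09) and Il1rn (-0.30). Crp and Cd14 have 2 exons each, and 5 of the 14 lower genes also have few, with 4 in Saa1, Saa2 and Saa4 and 3 in Mt1 and Mt2. Genes with fewer than 5 exons were listed at 0 in 1 of the libraries in 5.65% of cases, against 0.0931% of genes with at least 5. Whether Serpina3n and this list share a cause was not tested.

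**Figure D3:**
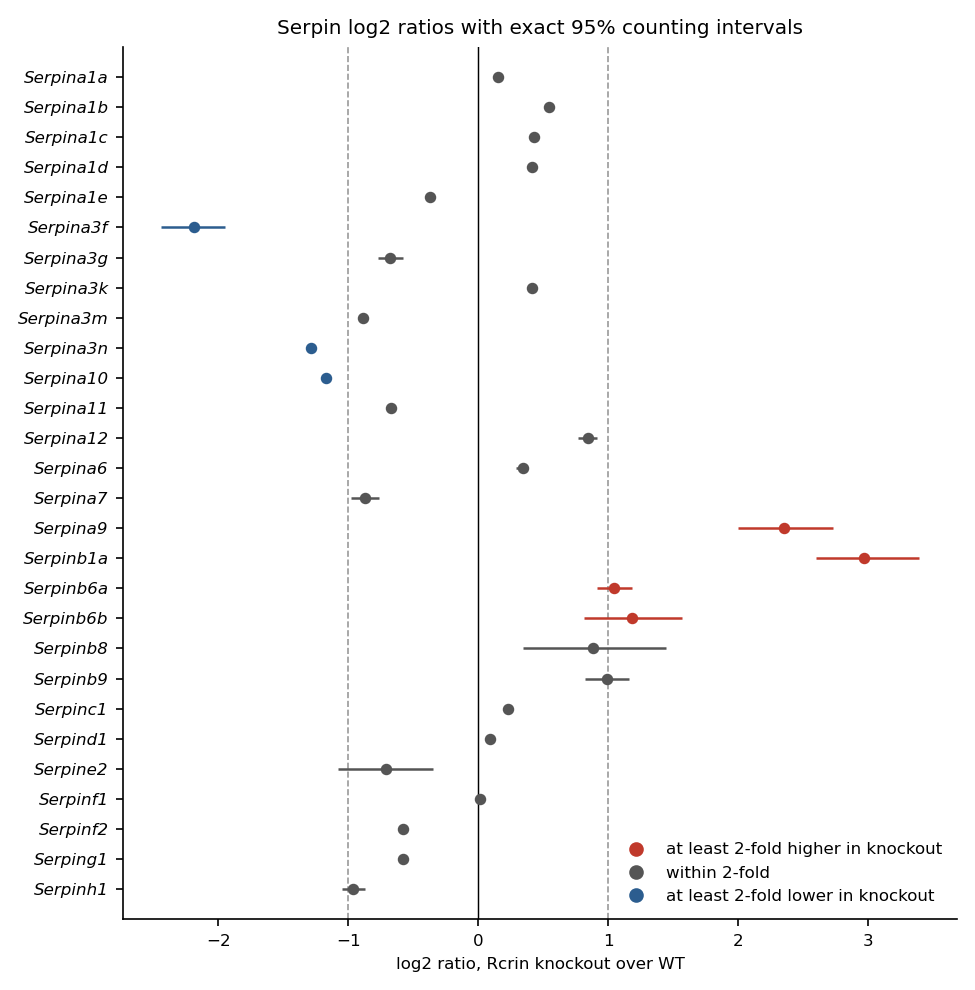
Log2 ratio of Rcrin knockout over WT for 28 of the 29 compared serpins, with exact 95% intervals for counting error and dashed lines at 2-fold. Points right of the right line (Serpinb1a, Serpina9, Serpinb6b, Serpinb6a) are at least 2-fold higher in the knockout library and points left of the left line (Serpina3f, Serpina3n, Serpina10) at least 2-fold lower.

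Clade b stood above WT. All 5 of its compared members were above 0, where 49.2% of all compared genes were, and 3 of 5 were at least 2-fold higher (8.45% of all genes). Serpinb8, 1 of the 5, passed the filter only through its knockout count, as its WT count was 46. Serpinb1a (ENSMUSG00000044734, GRCm38 chromosome 13 from 32842092 to 32851185), which inhibits neutrophil elastase, cathepsin G and proteinase 3, had 470 counts in the knockout library and 63 in the WT library. This was 7.86-fold higher and the largest ratio of all compared serpins (log2 ratio 2.97, interval 2.60 to 3.39). Serpinb6b, an inhibitor of granzyme A in mice, had 184 and 86 counts (1.18, interval 0.81 to 1.57). Serpinb6a, whose human relative inhibits cathepsin G, had 1362 and 702 (1.04, interval 0.91 to 1.18). The intervals of these 2 genes reach below the 2-fold limit, and each call was lost under 1 alternative, Serpinb6b at 0.86 with the GC trend removed and Serpinb6a at 0.99 with total count scaling.

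Serpinb9, which protects cells from granzyme B, had 804 counts in the knockout library and 430 in the WT library, just inside the limit (log2 ratio 0.99, interval 0.82 to 1.16, and 0.61 with the GC trend removed). Serpinb8, whose human relative inhibits furin, had 80 and 46 counts (0.88, interval 0.34 to 1.44). All 5 are minor in liver, at 1.28 to 21.8 CPM in the knockout library and 0.694 to 10.6 CPM in the WT library. Of the 26 genes of clade b, 18 were listed at 0 in both libraries. Serpinb1c and Serpinb9b had 13 counts each in the knockout library and 0 in the WT library, and Serpinb1b had 6 and 5. Summed over the clade there were 2932 counts in the knockout library and 1332 in the WT library (log2 ratio 1.22).

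Exons of Serpinb6a overlap the genes 1110046J04Rik, Nqo2 and Ripk1 on the opposite strand. Without known use of strand, reads of the overlap cannot be told apart. Nqo2 had 3238 counts in the knockout library and 2433 in the WT library (log2 ratio 0.50) and Ripk1 772 and 412 (0.99). Serpinb1a is free of such overlap, and 96.6% of its 50-base stretches were its own.

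Leukocytes also express clade b serpins, and in bulk liver fewer cells of a type and less RNA per cell cannot be told apart. Neutrophil markers stood on the other side of WT from Serpinb1a: of 9 compared, 5 were at least 2-fold lower in the knockout library and 0 higher (8.61% and 8.45% of all genes), with a median of -1.09. Summed over all 12 they came to 27.4 CPM in the knockout library and 69.3 CPM in the WT library, and none was at 0 in either. Elane (22 counts in the knockout library, 188 in the WT library) and Ltf (42 and 296), both among the lower, passed the filter only through their WT counts. Camp and Ngp, also among the lower, have 4 exons each. Genes with fewer than 5 exons were more often at 0 in 1 library, as given above. Lymphocyte markers summed to 27.8 CPM in the knockout library and 28.6 CPM in the WT library over 12 genes. Of 9 compared, 1 was lower and 0 higher, close to the shares of 8.61% and 8.45% over all genes. The lower one, Cd8a (36 counts in the knockout library, 98 in the WT library), passed the filter only through its WT count. Macrophage markers summed to 1419 CPM in the knockout library and 1990 CPM in the WT library, with 1 of 12 lower and 1 higher, which is also near those shares. Of these 12, only Vsig4 (1.02) and Timd4 (0.41) were above 0. The part of these cells in the clade b values was not tested.

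Hormone carriers of clade a differed in direction. Serpina6, corticosteroid-binding globulin, had 7818 counts in the knockout library and 6575 in the WT library (log2 ratio 0.34, interval 0.29 to 0.38). Serpina7, thyroxine-binding globulin, had 1043 and 2027 counts (-0.87, interval -0.98 to -0.76). Neither inhibits a protease. Of 11 other plasma carriers compared, 1 was at least 2-fold higher and 0 lower, near the 8.45% and 8.61% of all genes, with a median of 0.40. The highest were Igfbp1 (2.0), Alb (0.83) and Igfbp2 (0.74), and the lowest were Hpx (-0.95), Trf (-0.93) and Igfbp4 (-0.58). Igfbp1, Igfbp2 and Igfbp4 have 4 exons each, in the class with more zeros in 1 library.

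The other clade a genes ranged widely. Serpina10 (ENSMUSG00000061947, chromosome 12 from 103614786 to 103631444), the protein Z-dependent inhibitor of factor Xa, had 21016 counts in the knockout library and 50097 in the WT library, 2.25-fold lower (log2 ratio -1.17, interval -1.19 to -1.14). Serpina12, the adipokine vaspin, had 4962 and 2941 counts (0.84). Serpina9 (ENSMUSG00000058260, chromosome 12 from 103994743 to 104013755), described in humans in germinal centre B cells, had 367 counts in the knockout library and 76 in the WT library, 5.10-fold higher (2.35, interval 2.0 to 2.73). Serpina11 had 6864 and 11582 counts (-0.67), and 44.4% of its 50-base stretches also stood in the overlapping transcript gene Gm28577, which had 25 and 19 counts. Exons of Serpina9 overlap the same gene.

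**Figure D4:**
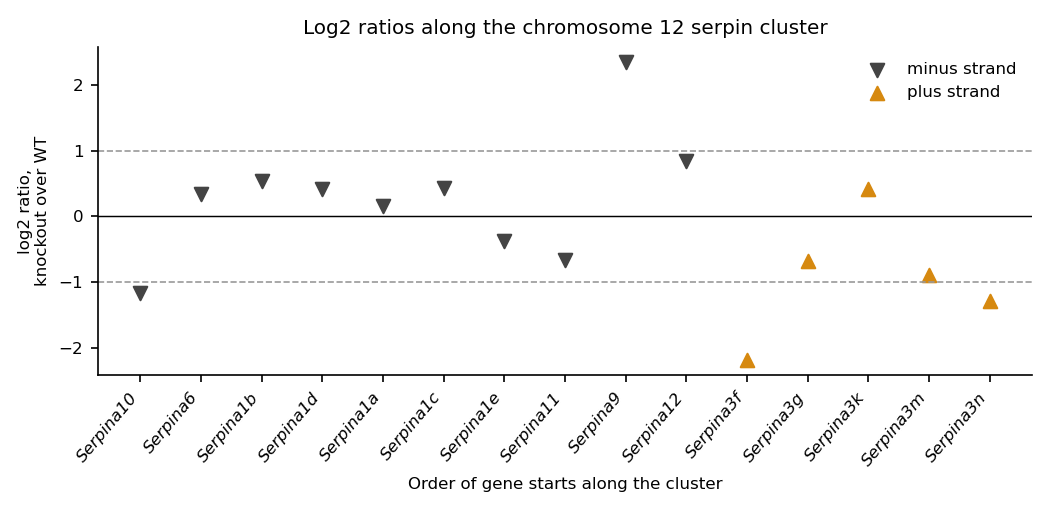
Log2 ratio of Rcrin knockout over WT for the 15 compared serpins of chromosome 12, in the order of their starts along the chromosome, with triangles pointing down for the minus strand and up for the plus strand. Neighbours stand on both sides of 0, from Serpina3f at -2.19 to Serpina9 at 2.35, and the highest and lowest values lie 2 places apart.

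A cluster of 23 serpins spans 799.5 kb on chromosome 12 (GRCm38, from 103614786 to 104414329), and 15 of them were compared. Ratios changed side several times along it. Serpina10 at its start stood at -1.17. Serpina6, Serpina1b, Serpina1d, Serpina1a and Serpina1c followed between 0.15 and 0.54. Serpina1e and Serpina11 lay below 0, Serpina9 and Serpina12 above it. Of the compared serpins on the plus strand, Serpina3k alone stood above 0. The pseudogene Serpina4-ps1, on the plus strand within the same span but not among those compared, stood at 0.70.

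Among serpins that control clotting and fibrinolysis, Serpina10 stood past 2-fold, as given above, and those of clades c, d and f lay within it. Antithrombin (Serpinc1), which inhibits thrombin and factor Xa, had 213245 counts in the knockout library and 192856 in the WT library (log2 ratio 0.23, interval 0.22 to 0.24). Heparin cofactor II (Serpind1) had 29408 and 29242 counts (0.09). Alpha-2 antiplasmin (Serpinf2), the main plasmin inhibitor, had 33760 and 53667 counts (-0.58), and PEDF (Serpinf1), a secreted factor without inhibitory activity, 49398 and 52123 (0.01). The 2 clade f genes are neighbours on chromosome 11, from 75409769 to 75422701 (Serpinf1) and from 75431732 to 75439591 (Serpinf2). The annotated transcript of Serpinc1 shares 58.8% of its 50-base stretches with Zbtb37 on the opposite strand. Zbtb37 had 59 counts in the knockout library and 187 in the WT library. Use of strand is unknown, and reads of the overlap could be missing from both genes, so these counts cannot show whether Serpinc1 was affected.

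The C1 inhibitor (Serping1), which restrains complement and plasma kallikrein, had 61104 counts in the knockout library and 96989 in the WT library (log2 ratio -0.58, interval -0.60 to -0.57). In clade e, protease nexin 1 (Serpine2) was minor, with 100 counts in the knockout library and 174 in the WT library (-0.71, interval -1.08 to -0.35).

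Serpinh1, or HSP47, is a chaperone of the endoplasmic reticulum that binds procollagen. It had 1576 counts in the knockout library and 3249 in the WT library (log2 ratio -0.96, interval -1.05 to -0.87), just inside the limit. Stellate cell and fibroblast markers summed to 252 CPM in the knockout library and 303 CPM in the WT library, with 2 of 12 lower and 0 higher (8.61% and 8.45% of all genes) and a median of -0.36. Col1a1 (-1.67), Acta2 (-1.49) and Des (-0.51) stood lowest, and Dcn (0.37), Reln (0.29) and Lum (0.17) highest. The part of stellate cells in the Serpinh1 value was not tested.

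The other 32 serpins were below the filter. Both libraries listed 22 of them at 0. Besides the clade b genes above, Serpina3a had 0 counts in the knockout library and 16 in the WT library, and Serpina3b and Serpina3j had 4 each in the knockout library and 0 in the WT library. Serpina3i had 19 in both. Serpina5, the protein C inhibitor, had 25 in the knockout library and 4 in the WT library, and neuroserpin (Serpini1) had 12 and 11. These genes were not compared, and their ratios rest on few reads. The counting intervals of some still lay beyond 2-fold: that of Serpina5 ran from 1.2 to 4.71 on the log2 scale, that of Serpina3a ended at -1.86, and those of Serpinb1c and Serpinb9b began at 1.69. Nearest to the filter, Serpinb8 lay just inside with a mean of 63 counts and Serpina3c just outside with 39.

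**Figure D5:**
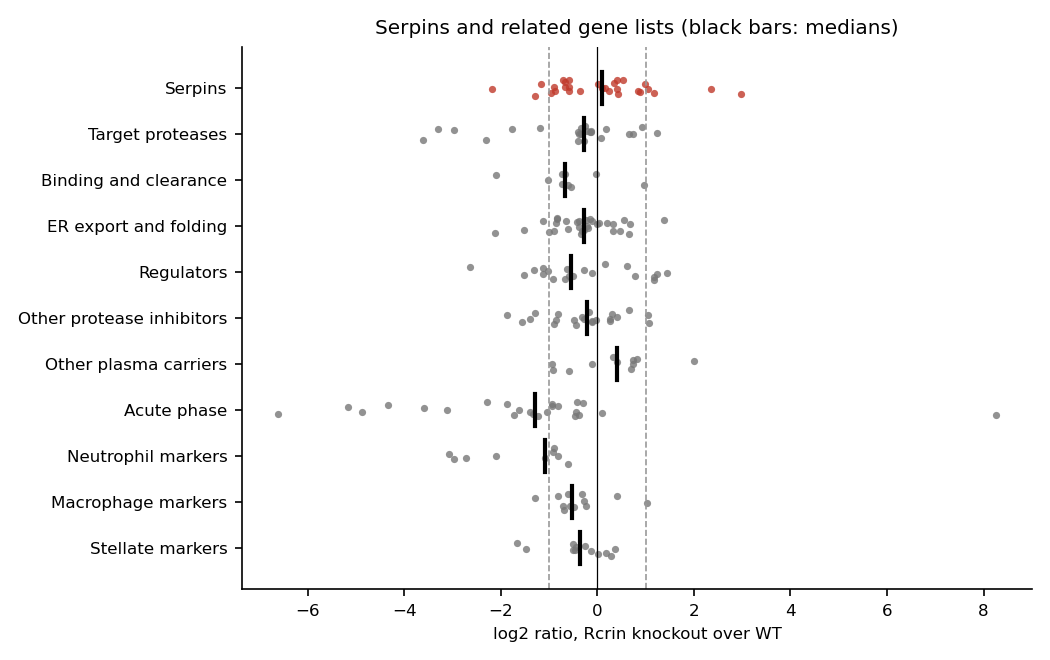
Log2 ratio of Rcrin knockout over WT for each compared gene of the serpins (red) and of related gene lists (grey), with black bars at the medians and dashed lines at 2-fold. The serpins scatter around 0, with a median of 0.09, while the acute phase list (-1.28) and the neutrophil markers (-1.09) lie mostly to the left.

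Proteases that serpins inhibit were mostly lower in the knockout library. Of 23 compared, 17 were below 0, as were 50.8% of all compared genes. By the 2-fold limit 6 were lower in the knockout library and 1 higher (8.61% and 8.45% of all genes), and the median was -0.27. The lowest were the neutrophil granule proteases cathepsin G (Ctsg, 8 counts in the knockout library and 110 in the WT library, log2 ratio -3.62), proteinase 3 (Prtn3, 135 and 1420, -3.30) and neutrophil elastase (Elane, 22 and 188, -2.98). These 3 are targets of Serpinb1a, which stood at 2.97, and whether their values are linked to it was not tested. Elane also stands in the list of neutrophil markers. Ctsg and Elane passed the filter only through their WT counts. The highest were urokinase (Plau, 1.23), plasma prekallikrein (Klkb1, 0.92) and prostasin (Prss8, 0.74). The rest of the 6, named after their values were seen, were factor IX (F9, 996 and 5199 counts, -2.30), granzyme B (Gzmb, 126 and 457, -1.77) and Masp1 (-1.20). Thrombin (F2, -0.26) and plasminogen (Plg, -0.40), also named after their values were seen, lay within 2-fold, as did their inhibitors Serpinc1 and Serpinf2.

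Genes for binding and clearance of serpins stood lower. Of 9 compared, 2 were at least 2-fold lower and 0 higher (8.61% and 8.45% of all genes), with a median of -0.67, and 8 were below 0, as were 50.8% of all compared genes. Itgb3 (310 counts in the knockout library, 666 in the WT library, log2 ratio -1.02) and Plaur (-0.74) were among the lowest, and the highest were Vldlr (0.96), Sdc4 (-0.02) and vitronectin (Vtn, -0.54). Lrp1, the receptor that takes up complexes of serpins with proteases and was named after its value was seen, had 34506 and 55608 counts (-0.60).

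Genes of folding, quality control and export from the endoplasmic reticulum, through which secreted serpins pass, had a median of -0.27, with 4 of 31 lower and 1 higher by 2-fold, where 8.61% of all genes were lower and 8.45% higher. Lman1, a cargo receptor for alpha-1 antitrypsin, was among the 3 highest (0.66), after Derl1 (1.37) and Edem3 (0.68). Pdia4 (4852 counts in the knockout library, 22413 in WT, -2.12), Derl3 (-1.53) and Syvn1 (-1.12) were lowest.

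Regulators of serpin genes stood on both sides. Of 20 compared, 4 were at least 2-fold higher and 6 lower (8.45% and 8.61% of all genes), with a median of -0.54. The interleukin 6 receptor chains led the lower side, Il6ra with 172 counts in the knockout library and 1150 in the WT library (log2 ratio -2.65) and Il6st with 3076 and 9342 (-1.52), followed by the feedback inhibitor Socs3 (-1.31). The highest were Foxa1 (1.45), Cebpb (1.24) and the growth hormone receptor Ghr (1.18). A further 2 were named after their values were seen: Stat3 (2420 counts in the knockout library, 5583 in the WT library, -1.12) and Hnf4a (16348 and 7694, 1.17). Cebpb has 1 exon and Foxa1 and Socs3 have 2, a class in which zeros in 1 library were frequent, as given above. Cebpa and Cebpd, with 2 exons each, were listed at 0 in both libraries. Cebpb was therefore the only C/EBP gene of the list that could be compared.

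Protease inhibitors outside the serpin family stood on both sides of WT. Of 22 compared, 2 were at least 2-fold higher and 4 lower in the knockout library (8.45% and 8.61% of all genes), with a median of -0.22. The lowest were Itih3 (23075 counts in the knockout library, 89875 in the WT library, -1.88), A2m (-1.57) and Itih4 (-1.39), of which Itih3 and Itih4 also stand in the acute phase list. A2m, with 28 counts in the knockout library and 89 in the WT library, passed the filter only through its WT count. The highest were Tfpi, the tissue factor pathway inhibitor (1.06), Mug2 (1.05) and Spp2 (0.66).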

How the data were processed

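Liver RNA was extracted with Trizol and made into libraries with a SMARTER kit, per the labels' protocols. The deposited values were raw read counts for Ensembl genes, per the file headers, and build GRCm38 (mm10) is named in the submitters' processing notes. No source used here gives the aligner, counter or strand setting. Gene names, positions and transcripts came from GENCODE M21, which matched 55154 of 55421 genes.

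Counts were scaled with TMM factors (edgeR 4.0.16, R 4.3.3), 0.982 for the knockout library and 1.02 for WT, and 0.5 reads were added before log2. Intervals are exact (Clopper-Pearson, 95%) and cover counting error only, not the spread between mice. PCR reads are not independent molecules, so the intervals can be too narrow even for counting error. Coding sequences were aligned with MAFFT. A total of 16 gene lists with 245 entries were used, and every compared serpin and the 3 highest and 3 lowest genes of each related list were named, along with others pointed out. Some genes that the rule took are not reported here. The serpins and lists were chosen with earlier results of these data known. Calculations were tested on simulated data. Alternatives were DESeq2 1.42.0 size factors, total count scaling, a GC trend, other filters, read additions and limits.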

Additional observations from a re-analysis of the deposited data

Results flagged for a closer look

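Serpina4-ps1 (chromosome 12 from 104080649 to 104086724, plus strand) was left out of the serpins compared because it is annotated as a pseudogene, and it carried a signal. It had 6050 counts in the knockout library and 3950 in the WT library, a log2 ratio of 0.70 with a counting interval of 0.64 to 0.76. The other 6 rows of serpin pseudogenes had at most 20 counts in either library.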

How the results depend on the processing

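No paired analysis was possible because there was 1 library per genotype, and for the same reason no library could be left out. The count of 4 higher serpins became 9 without a filter on low counts, 1 with a mean of at least 500 counts, 7 at 1.5-fold, 2 at 4-fold and 2 with the interval wholly beyond 2-fold. The count of 3 lower serpins became 9 at 1.5-fold, 1 at 4-fold and 1 with the Serpina1 and Serpina3 copies each summed. The remaining settings left both counts within 1 of these values, and the serpin median lay between 0.04 and 0.23 under all of its alternatives. The Serpina1 sum had log2 ratios of 0.14 with DESeq2 size factors, 0.09 with total count scaling and 0.24 with the GC trend removed. The Serpina3 sum had 0.35, 0.31 and 0.32 and all serpins together 0.19, 0.14 and 0.24 in the same order. Of 167 values of named serpins under alternatives, 4 crossed the 2-fold limit: Serpina7 (-1.30) and Serpinb6b (0.86) with the GC trend removed, and Serpinb6a (0.99) and Serpinh1 (-1.01) with total count scaling. Serpind1 (-0.03, GC trend removed) and Serpinf1 (-0.04, total count) changed sign. Why these values moved was not tested. Serpins with few reads, such as Serpinb8 and Serpine2, have the widest intervals.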

Other observations

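Angiotensinogen (Agt) belongs to the serpins by descent, as the substrate of renin, but its symbol does not start with Serpin. It had 42909 counts in the knockout library and 50022 in the WT library, a log2 ratio of -0.14.

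Markers of other cells that liver can hold had medians of -0.13 over 10 endothelial genes, -0.11 over 9 lymphocyte genes, -0.53 over 12 macrophage genes and -0.16 over 5 cholangiocyte genes. They were 0.43 over 4 mesothelial genes and -2.03 over 9 genes of red cells and platelets. In the last list Hba-a1, Hba-a2, Hbb-bs and Hbb-bt have 3 exons each, and genes with fewer than 5 exons were more often at 0 in 1 library. The hepatocyte markers had a median of 0.37. By the 2-fold limit 1 of 10 was higher and 0 lower, near the 8.45% and 8.61% of all genes. The 1 higher gene was Hnf4a (1.17), also named among the regulators.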
